A study of Caenorhabditis elegans with 2 samples.

Results

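The genes described here encode the initiation and elongation factors of translation in the nematode Caenorhabditis elegans. They were chosen by a name rule, set with earlier results of these data known. It takes the protein-coding genes of the Ensembl release 115 annotation (assembly WBcel235, the coordinates of ce11) whose names start with eif-, eef-, ife-, ifg- or iftb-. The rule found 37 of 19973 nuclear protein-coding genes, of which 25 are named eif-, 6 eef-, 5 ife- and 1 ifg-, and 0 iftb-. The data are peak lists from chromatin immunoprecipitation with sequencing (ChIP-seq) of early embryos labelled as 1 hour old and collected by egg bleaching, in 2 biological replicates of 1 group. All worms were of strain OP368, which carries the transgene wgIs368, a trimmed tbx-11 fosmid with a TY1, EGFP and 3xFLAG tag, together with unc-119(+) in an unc-119(tm4063) mutant. The description names an antibody against GFP, while the antibody field of the labels reads tbx-11, and the lists show where the tagged T-box protein made from an added gene copy was found, over all cells of whole embryos. With no second condition, the genes were described across lists and replicates and set beside all protein-coding genes.

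Translation begins when eIF2 brings the initiator tRNA to the small ribosomal subunit, together with eIF1, eIF1A and the large eIF3 complex, while the cap-binding protein eIF4E and the scaffold eIF4G bring in the mRNA. eIF2B recharges eIF2 with GTP after each round. In elongation, eEF1A delivers aminoacyl-tRNAs, the eEF1B subunits recharge eEF1A, and eEF2 moves the ribosome along the mRNA. Many C. elegans mRNAs receive a spliced leader at their 5′ end by trans-splicing, so an annotated gene start is often a splice acceptor and not the base where RNA polymerase begins.

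Each gene was given every summit from 1000 bp upstream to 500 bp downstream of its annotated start. A peak, in what follows, is an entry of the conservative thresholded list of both replicates, which holds the 882 entries that passed the authors' reproducibility threshold. A candidate is any of the 87796 entries of the ranked list from which those were taken. Entries can overlap, as they do at eif-2Bgamma, so an entry is not always a separate site. Each entry carries a deposited signal, higher at stronger sites, whose scale is not stated. Each replicate was also called alone, with its own scale. At the genes of the transgene, tbx-11 and unc-119, there was no candidate in the window in any of the 8 lists.

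Of the 37 genes, 4 had a peak in the promoter window (10.8%, Clopper-Pearson 95% interval 3.03 to 25.4), against 2.45% of all protein-coding genes (489 of 19973). These were eif-3.C, eif-3.B and eif-3.I, which encode subunits of eIF3, and eif-2Bgamma, which encodes a subunit of eIF2B. The 4 peaks were separate sites. The other pooled thresholded list also held 4 of the 37 genes, against 2.75% of all genes, with eif-3.G in place of eif-3.I. eif-3.G was in the list of replicate 1 too. In the list of replicate 1 alone 3 of the 37 genes had a peak, against 1.53% of all genes, and in that of replicate 2 alone 1 gene, eif-3.C, had one, against 1.21%. The interval covers counting error over genes only, and the difference from all genes was not tested.

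eIF3, the large factor that binds the small ribosomal subunit and organises scanning, had a peak at 3 of its 11 genes (Clopper-Pearson 95% interval 6.02 to 61.0%), against 2.45% of all protein-coding genes. The strongest of the 37 genes was eif-3.C (WBGene00001226, chromosome I, 9976426 to 9979662, minus strand), which encodes a subunit of the eIF3 core. Its peak ran from 9979727 to 9980056, in intergenic sequence, with the summit 230 bp upstream of the start. The signal was 222 in the pooled list, 122 in replicate 1 and 93.2 in replicate 2, and the site was in all 4 thresholded lists. It ranked 132 of 882 in the main list by signal. Only this one of the 37 genes had a peak in both replicates taken alone.

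The genes eif-3.B, eif-3.I and eif-3.G encode subunits that form a module of eIF3 in yeast and mammals. eif-3.B (WBGene00001225, chromosome II, 14795404 to 14798235, plus strand) had its peak from 14795024 to 14795353, with the summit in intergenic sequence 215 bp upstream. Its signal was 98.2 pooled, 65.0 in replicate 1 and 38.5 in replicate 2, and it was in the thresholded list of replicate 1 but not of replicate 2. eif-3.I (WBGene00001232, chromosome I, 2485861 to 2489787, plus strand) had a weaker peak from 2485527 to 2485856, with signals of 68.6, 40.1 and 35.2 and a summit 169 bp upstream. That summit also lay in the window of abtm-1, a divergent gene whose start lies 469 bp away. This peak was in no other thresholded list, so 1 of the 4 depends on which pooled list is read.

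eif-3.G (WBGene00001230, chromosome II, 8442767 to 8444175, plus strand) had a stronger pooled candidate than eif-3.I, with a signal of 73.4, 330 bp upstream. In replicate 1 the site had a signal of 58.0. In replicate 2 the nearby candidate had 13.7, and the strongest in the window, 24.6, lay 979 bp upstream. The authors' score for reproducibility, which runs to 1000 and was at least 830 in the thresholded lists, was 54 for this site in the conservative ranked list and 879 in the other.

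The remaining eIF3 genes ranged widely. eif-3.D, whose product is a cap-binding subunit in mammals, had a candidate of 56.2 at 218 bp upstream. That summit was 96 bp from the start of the divergent gene R08D7.4, which was the nearest start. eif-3.K (38.2), eif-3.J (33.2), eif-3.E (32.2) and eif-3.H (26.8) lay nearer to the median of all genes with a candidate, 31.7. eif-3.F and eif-3.L had no candidate in the window in any ranked list. Over the 9 eIF3 genes with a candidate the median signal was 56.2.

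**Figure D1:**
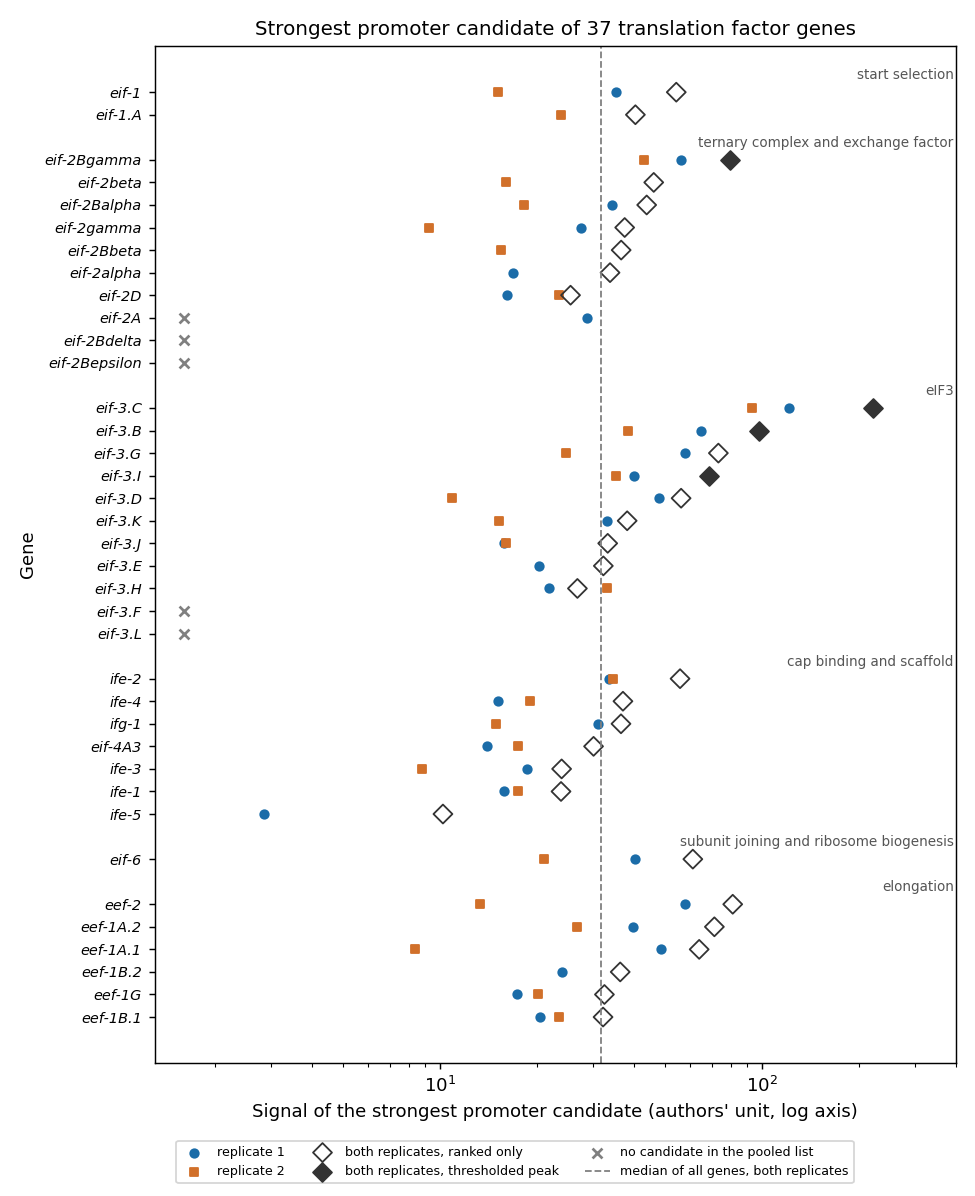
Signal of the strongest promoter candidate of each of the 37 genes (log axis, authors' unit), by role, with replicate 1 as circles, replicate 2 as squares and both replicates pooled as diamonds, filled where the site is a thresholded peak. eif-3.C stands at 222, and the dashed line marks the median of all genes with a pooled candidate, 31.7.

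The sequence at the summits is shown for 5 genes whose site is strong and holds a word described later. Each line gives the WBcel235 reference from 75 bp before to 75 bp after the summit, 151 bases read 5′ to 3′ on the strand of the gene. Capitals mark CGCGCA, or its reverse complement TGCGCG, and GGTGTG, the core word bound by T-box proteins, or its reverse complement CACACC.
eif-3.B, chrII:14795125-14795275, plus strand: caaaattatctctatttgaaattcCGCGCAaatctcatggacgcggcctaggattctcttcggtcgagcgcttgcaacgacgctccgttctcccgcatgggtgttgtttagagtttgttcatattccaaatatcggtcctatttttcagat
eif-3.G, chrII:8442365-8442515, plus strand: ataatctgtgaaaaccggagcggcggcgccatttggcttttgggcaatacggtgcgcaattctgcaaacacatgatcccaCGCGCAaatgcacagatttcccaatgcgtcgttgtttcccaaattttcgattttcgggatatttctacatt
eif-2Bgamma, chrII:6968315-6968465, minus strand: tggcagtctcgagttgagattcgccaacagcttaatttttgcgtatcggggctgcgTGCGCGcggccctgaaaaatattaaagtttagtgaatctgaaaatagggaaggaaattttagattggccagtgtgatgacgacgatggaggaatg
ife-2, chrX:382810-382960, minus strand: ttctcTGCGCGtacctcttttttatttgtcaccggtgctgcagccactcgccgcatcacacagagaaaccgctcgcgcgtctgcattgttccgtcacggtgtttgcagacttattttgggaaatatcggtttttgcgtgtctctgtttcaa
eef-1A.2, chrX:7823305-7823455, plus strand: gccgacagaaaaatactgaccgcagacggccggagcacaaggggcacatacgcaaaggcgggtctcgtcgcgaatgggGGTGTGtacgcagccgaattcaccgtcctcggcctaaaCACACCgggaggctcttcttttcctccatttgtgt
The first 4 each hold the first word once, at different distances from the summit, and eef-1A.2 holds the T-box core on both strands.

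The 10 genes of the ternary complex group, named eif-2 and like names, had 1 peak (interval 0.253 to 44.5%), against 2.45% of all genes. eif-2Bgamma (WBGene00004090, chromosome II, 6965800 to 6967648, minus strand) encodes the gamma subunit of the exchange factor eIF2B. Its peak ran from 6968226 to 6968555, and the summit lay 743 bp upstream, inside an intron of the neighbouring gene C15F1.5 on the same strand. The signal was 79.5 pooled, 56.1 in replicate 1 and 43.0 in replicate 2, with the replicate summits 145 bp apart. An annotated snRNA gene, sup-39, and a non-coding RNA gene, C15F1.14, lay within 100 bp of the summit. With summits at small RNA genes left out, 3 of the 37 genes had a peak, against 1.82% of all genes.

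The other genes of the group had no peak in any thresholded list. The 3 subunits of eIF2 itself were at 46.2 (eif-2beta), 37.5 (eif-2gamma) and 33.8 (eif-2alpha). Of these, only the eif-2beta candidate, 148 bp downstream of the start, had that gene as its nearest start. For eif-2gamma and eif-2alpha the summits lay 846 and 735 bp upstream and nearer to tbca-1 and phb-1. Both candidates had a reproducibility score of 24, the lowest in the conservative ranked list. The strongest candidates of eif-3.E, eif-4A3, ife-3 and ife-5 had the same score. eif-2Balpha (43.9) and eif-2Bbeta (36.6) had summits 52 and 56 bp from the starts of the divergent genes mut-7 and Y47H9C.8. eif-2Bdelta and eif-2Bepsilon had no candidate in any ranked list, and eif-2A, an alternative initiation factor, had one only in replicate 1 (28.6) and in the other pooled list (27.3). eif-2D, which also encodes an alternative initiation factor, was at 25.5.

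Start-site selection is the work of eIF1 and eIF1A. The pooled signals were 54.3 at eif-1 and 40.5 at eif-1.A, with summits 350 and 194 bp upstream. The eif-1 summit was 68 bp from the start of vps-24, a divergent gene. At eif-1.A replicate 1 had no candidate in the window and replicate 2 had one of 23.8 at 798 bp upstream, so neither replicate alone placed a summit near the pooled one. eif-6, whose product keeps the ribosomal subunits apart during their biogenesis, had a pooled signal of 61.1, with 40.5 in replicate 1 and 21.1 in replicate 2.

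The cap-binding and scaffold genes had 0 peaks among 7 (interval 0 to 41.0%), which at 2.45% of all genes does not set them apart. C. elegans has several eIF4E genes, ife-1 to ife-5, some of them used mainly in the germ line. ife-2 was the strongest of them, with 55.8 pooled, 33.7 in replicate 1 and 34.5 in replicate 2, and a summit 176 bp upstream. Its score of 707 made it the gene just outside the threshold of the main list, where eif-3.I, with 896, was just inside. The other ife genes were at 37.1 (ife-4), 23.9 (ife-3), 23.8 (ife-1) and 10.2 (ife-5). The last was the weakest of the 32 candidates. ifg-1, the eIF4G gene, was at 36.5, and eif-4A3, whose product is part of the exon junction complex in other animals, was at 30.04.

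All 6 elongation factor genes had a candidate, against 67.9% of all genes, with a median signal of 50.1. None of the 6 had a peak (interval 0 to 45.9%), which at 2.45% of all genes does not set them apart. eef-2 (WBGene00001167, chromosome I, 9163531 to 9166952, plus strand) had a signal of 81.3, above those of eif-2Bgamma and eif-3.I, at a summit 12 bp upstream. That summit also lay in the window of clsp-1, a divergent gene 264 bp away. In the replicates the strongest candidates were 57.7, 2 bp downstream, and 13.3, 129 bp downstream. The reproducibility score was 53 in the conservative ranked list and 828 in the other, just short of the threshold. eef-1A.2 was at 71.3 pooled, 39.8 and 26.7, with a score of 648. A non-coding RNA gene, R03G5.8, lay within 100 bp of that summit.

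eef-1A.1 (WBGene00001168, chromosome III, 6970026 to 6971712, minus strand) had a pooled candidate of 63.9 at 440 bp upstream. Replicate 1 had 48.6 at 441 bp upstream. Replicate 2 had no candidate within 200 bp of that place, and its strongest in the window was 8.40 at 28 bp upstream. The miRNA gene cel-mir-5549 lay within 100 bp of the pooled summit, which was also 101 bp from the start of the divergent gene rfc-4. The eef-1A.1 and eef-1A.2 genes encode nearly the same protein, and whether reads inside the genes can be placed uniquely was not tested. eef-1B.2 (36.3), eef-1G (32.5) and eef-1B.1 (32.1), which encode eEF1B subunits, were close to the median of all genes with a candidate.

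Signal and threshold did not rank the genes alike. Of the 37 genes, 7 had a pooled signal at or above 68.6, that of the weakest peak among them (eif-3.I). Of these, 3 (eef-2, eif-3.G and eef-1A.2) had no peak in the main list. The cut was thus taken from the genes themselves, and it stood at percentile 96.6 of all protein-coding genes.

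**Figure D2:**
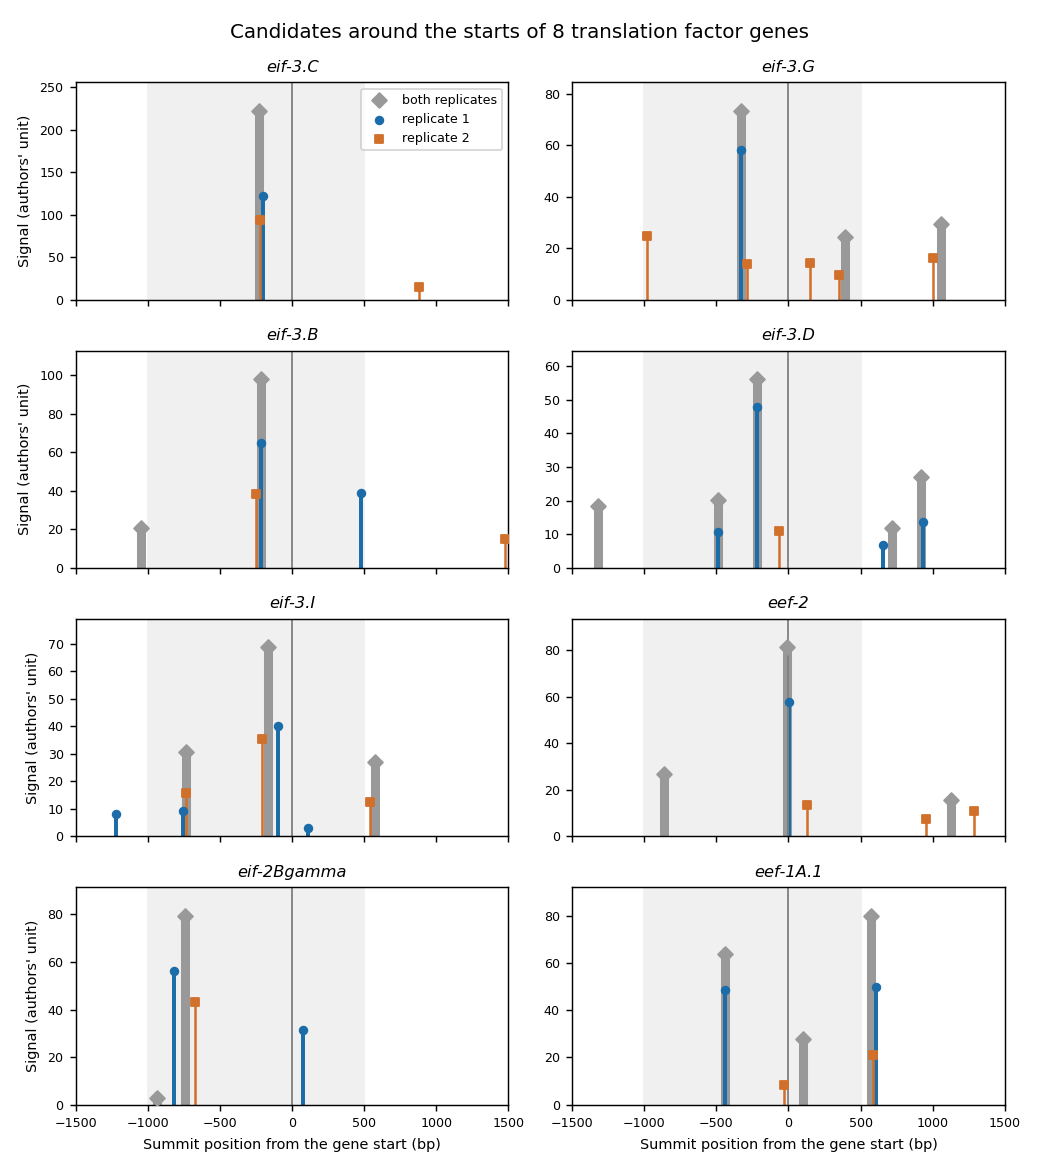
Candidates within 1500 bp of the annotated start of 8 genes, by position (bp, negative is upstream, grey area the promoter window) and signal (authors' unit, each panel with its own scale), as diamonds for both replicates, circles for replicate 1 and squares for replicate 2. At eif-3.C, eif-3.B and eif-3.I both replicates have a site near the pooled one, while at eif-3.D, eef-2 and eef-1A.1 the replicate 2 sites in the window are at 10.9, 13.3 and 8.40.

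The replicates differed in strength at several of these genes. Both replicates had a promoter candidate at 25 of the 37 genes, replicate 1 alone at 5, replicate 2 alone at 3 and neither at 4. Of all 19973 protein-coding genes, both had one at 6896, replicate 1 alone at 3463, replicate 2 alone at 3433 and neither at 6181. Over the 25 genes Spearman's rho between the strongest signals was 0.278 and Pearson's r of the log2 signals 0.405, against 0.343 and 0.514 over 6896 of all genes. For the 57 ribosomal protein genes with both, rho was 0.619. These are descriptions across genes, which share the 2 libraries and in part the same sites.

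Replicate 1 was the higher at 16 of the 25 genes (64.0%), against 70.2% of the 6896 genes. It was more than 2 times replicate 2 at 9 of the 25 genes (36.0%), against 14.5% of the 6896 genes. The median log2 ratio of replicate 1 to replicate 2 was 0.58 for the 25 and 0.33 for all. At eef-1A.1 the ratio was 5.79, at eif-3.D 4.39, at eef-2 4.34 and at eif-3.G 2.36. Among the 6896 genes the log2 ratio of eef-1A.1 ranked 1.5, that of eif-3.D ranked 18.5 and that of eef-2 ranked 20.5. Each was tied with a divergent neighbour through the same sites, namely rfc-4, R08D7.4 and clsp-1 in that order. These ratios compare the strongest candidate of each replicate wherever it lay in the window.

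With both replicate summits required within 200 bp of the pooled one, 18 of the 37 genes could be compared. Replicate 1 was then the higher at 12 of the 18 (66.7%), against 70.6% of 5017 genes. It was more than 2 times replicate 2 at 5 of the 18 (27.8%), against 15.4% of the 5017 genes and 10.4% of 48 ribosomal protein genes. Those with a ratio above 4 were eif-3.D (4.39), eef-2 (4.34) and eif-3.G (4.23). At the 4 genes with a peak, which had passed a threshold on reproducibility between the replicates, the ratio was between 1.14 and 1.69, so these values follow in part from that threshold. The conservative scores of eif-3.D (49), eef-2 (53) and eif-3.G (54) were far below it. In the other direction, eif-2D stood at 6.79 in replicate 1 and 23.4 in replicate 2. Read depth is unknown, so its part in these differences was not tested, and neither were the differences between the gene sets.

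**Figure D3:**
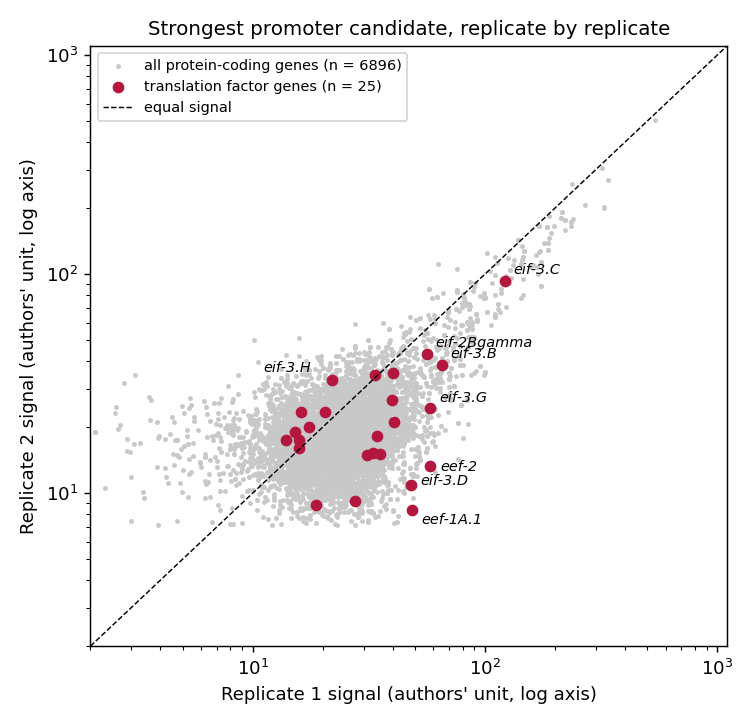
Strongest promoter candidate in replicate 1 against replicate 2 (both log axes, authors' unit), for the 25 translation factor genes and all 6896 genes with one in both. eif-3.C lies at 122 and 93.2 near the dashed line of equal signal, and eef-2, eif-3.D and eef-1A.1 lie well below it.

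A promoter candidate was present at 32 of the 37 genes (86.5%, 71.2 to 95.5), against 67.9% of all protein-coding genes. The median signal of the 32 was 37.9, with a range from 10.2 to 222, against 31.7 for all genes with a candidate. On a percentile scale over all 19973 genes, with genes lacking a candidate at the bottom, the median of the 37 was 75.1. By that scale 12 of the 37 were above the 90th percentile, and 30 were above the 50th. In the lists of single replicates the medians were 72.5 and 68.7. Cytosolic ribosomal protein genes, named rpl- and rps-, stood higher, with a median percentile of 84.3 and a peak at 14 of 78. Aminoacyl-tRNA synthetase genes were at 55.2, with a peak at 1 of 31, ears-2 (346). The differences between these sets were not tested.

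The counts were also made with other windows and rules. From 500 bp upstream to 250 bp downstream, 3 of the 37 genes had a peak (1.67% of all genes) and 27 a candidate (51.3%). With the window reaching 2000 bp upstream, 4 had a peak (3.28%) and 33 a candidate (76.9%). Using every annotated transcript start gave 4 (2.68%) and 33 (69.9%), and counting any overlap of the peak interval gave 4 (2.65%) and 32 (71.7%). Without summits at small RNA genes 30 had a candidate (66.5%), and the other pooled ranked list gave 33 (74.3%). Replicate 1 alone gave a candidate at 30 genes (51.9%) and replicate 2 at 28 (51.7%). With peaks at or above the median signal of the list only, 1 gene was left, eif-3.C, against 1.28% of all genes.

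Other genes of the pathway, taken from a list of 29 names of which 26 were in the annotation, had 3 peaks (11.5%, 2.45 to 30.2) against the same 2.45% of all genes. They lay at erfa-3, the release factor eRF3 (145.5 pooled, 84.1 in replicate 1 and 60.6 in replicate 2), larp-1, an RNA-binding protein (122, 78.2 and 47.1), and ifet-1, a protein that binds eIF4E (95.2, 59.5 and 32.7). The ifet-1 summit lay within 100 bp of an annotated non-coding RNA gene, so 2 of the 3 peaks were away from small RNA genes. Of the 3, only larp-1 was in the thresholded lists of both replicates. drr-2, the eIF4H gene, had a signal of 76.6 and a score of 786, below the threshold. The 20 of the 26 genes with a candidate had a median signal of 47.5, and inf-1, the gene of the helicase eIF4A, was at 46.5.

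**Figure D4:**
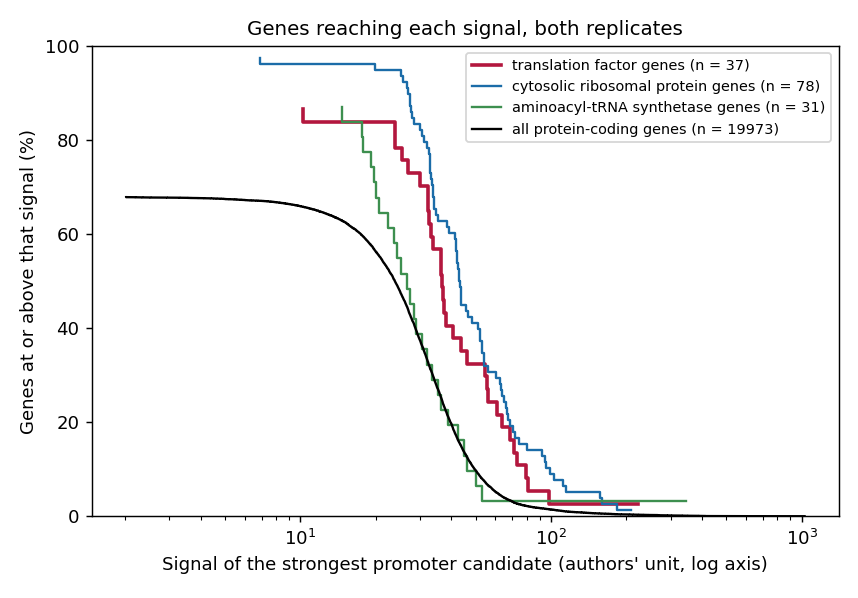
Share of genes (%) whose strongest pooled promoter candidate reaches at least the signal on the log x axis (authors' unit), for translation factor, ribosomal protein, synthetase and all protein-coding genes. The translation factor curve starts at 86.5% and lies between those of the ribosomal protein genes and of all genes over most of the range.

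The strongest candidate lay upstream of the start in 28 of the 32 genes (87.5%), against 68.8% of all genes with one. The median summit was 217 bp upstream, close to the 226 bp of all genes. It lay within 250 bp of the start in 18 of the 32 (56.2%), against 37.7% of all. By annotation 23 of the 32 summits were intergenic, 5 in coding exons, 3 in introns and 1 in a UTR. This split was not made for all genes, so it has no background beside it. The 4 found downstream of the start belonged to eif-2beta, in an intron of the gene, and to eif-3.H, ife-1 and ife-3, in coding exons. A small RNA gene lay within 100 bp of 4 of the 32 summits (12.5%), against 4.78% of all. At eef-1A.2 and eef-1B.1 it was a gene annotated only as ncRNA.

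**Figure D5:**
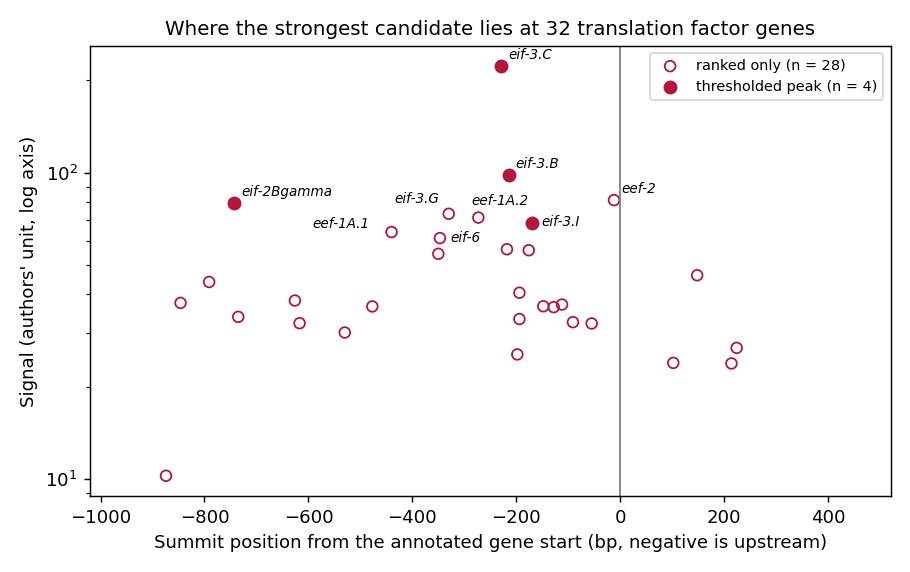
Position of the strongest pooled candidate from the annotated start (bp, negative is upstream) and its signal (log axis, authors' unit) for 32 genes, filled for the 4 with a thresholded peak. Apart from eif-2Bgamma at 743 bp upstream, the filled points lie between 169 and 230 bp upstream.

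Many of the promoters were shared with a neighbour. A divergent protein-coding gene lay within 1000 bp upstream at 18 of the 37 genes (48.6%), against 17.2% of all protein-coding genes. In the 16 of these 18 that had a candidate, the strongest was also in the window of the divergent gene. The windows of divergent starts this close largely overlap, so this follows in large part from the window rule. Its share among all genes with a divergent neighbour was not counted. Over all 32 candidates the translation factor gene had the nearest start in 18, and in 11 of the other 14 the nearest was that of the divergent gene. When each summit was given only to its nearest start, 24 of the 37 genes kept a candidate, against 62.8% of all genes, and the median percentile was 56.0. All 4 peaks stayed with their genes, so 4 of the 37 genes had a peak under this rule too. Of all protein-coding genes, 1.78% had a peak under it. Which gene of a shared promoter a site belongs to cannot be read from these lists. Among all protein-coding genes, those with a divergent neighbour had a peak in 5.88% of cases, and the translation factor genes with one in 1 of 18, eif-3.I.

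The word CGCGCA was chosen because earlier results of the same data had shown it to be frequent at peaks, so its presence at peaks is not a separate finding. On either strand and within 100 bp of the summit it was found at 10 of the 32 strongest candidates (31.2%), against 5.62% of the 11952 distinct strongest candidates of all protein-coding genes. All 4 genes with a peak in the main list, and eif-3.G, held it. These 4 peaks are among the 10 sites, so the choice of the word bears on that share too. Of the 384 promoter peaks of the main list 21.6% held the word, and of the 266 away from small RNA genes 26.3%. The word began 51 bp before the summit in both eif-3.B and eif-3.C, 19 bp before in eif-2Bgamma, 70 bp before in eif-3.I and 5 bp after in eif-3.G. The other genes with it were ife-2, eef-1A.2, eif-4A3, eif-2D and ife-5. The GC content of these 201-base windows, which bears on such a word, had a median of 37.8% at the 32 candidates and 38.3% over all.

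In the promoters themselves, 300 bases from 250 before the start to 50 after its first base, CGCGCA was present in 9 of 37 (24.3%), against 6.08% of all promoters and 6.41% of those of ribosomal protein genes. The T-box core GGTGTG was in 1 of 37 promoters, that of eef-1A.2, against 7.60% of all. At the candidates it was in 1 of 32, again eef-1A.2, against 6.43%. CTGCGTC was in 0 of 37 against 4.34%, GAGAGA in 6 against 21.8% and TATAAA in 16 against 37.9%. All were sought on both strands, none of these words contains another, and CGCGCA can overlap its own reverse complement. A match is a description of the letters and not a binding site.

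TTTCAG is the usual end of a splice acceptor in C. elegans. The word on the strand of the gene ended exactly before the annotated start in 14 of 37 genes (37.8%), against 12.3% of all protein-coding genes and 48.7% of ribosomal protein genes. The following lines show 20 bases before the start and the first 10 of the gene, with TTTCAG in capitals, for genes with and without it, from WBcel235.
eef-1A.1, chrIII:6971703-6971732, minus strand: ttaaattgttttttTTTCAGttgggaaaca
eef-1A.2, chrX:7823634-7823663, plus strand: ctaaaatttatcatTTTCAGtaaccaacct
eif-3.G, chrII:8442747-8442776, plus strand: cataatcaatagttTTTCAGgtagtaaagt
ife-2, chrX:382700-382729, minus strand: acatattgttttctTTTCAGcaagtaatgt
eif-3.B, chrII:14795384-14795413, plus strand: tcaataaaccgtgtctaaagTTTCAGacta
eef-1G, chrV:10965699-10965728, plus strand: tggcattctgccaggggcacatacgcagac
In the first 4 the word abuts the start, in eif-3.B it lies inside the annotated gene, and in eef-1G it is not in these 30 bases. If the word marks a splice acceptor at a gene of the first kind, the distance from summit to start is a distance to that acceptor. Trans-splicing was not measured here.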

How the data were processed

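The deposited lists hold ChIP-seq peaks of 2 biological replicates of 1 group. Per the deposited file descriptions, single lists were made from 1 replicate's alignments and pooled lists from both, with control alignments, on assembly ce11. Column 7 is the peak signal as deposited, column 5 the authors' score derived from the irreproducible discovery rate, and column 10 the summit offset. For the aligner, the peak caller and the filters, the sources used here give no names. All 882 conservative peaks stood unchanged in 1 of the pooled ranked lists, which served as the source of candidates. The 32 columns of unnamed sub-analyses in the ranked lists were not used. All peak ends fell within the WBcel235 chromosome lengths.

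Summits were assigned to windows around gene starts with pandas 2.3.3, and intervals computed with scipy 1.17.1. The assignment was tested on simulated data, where 135 of 135 summits planted inside windows of 19973 genes were recovered and 0 outside were assigned. With 1 group and no counts, no test was made, and depth is unknown. The members, lists and words were chosen with earlier results of these data known. Genes were named if they had a peak in any thresholded list, were among the 10 strongest, the 5 weakest or without a candidate, or lay nearest to the threshold, and the other members were named after their values were seen. The alternatives were other lists, windows, starts and assignments.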

Additional observations from a re-analysis of the deposited data

How the results depend on the processing

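The count of genes with a peak was 4 in the main list (10.8%, against 2.45% of all genes). It was 1 (eif-3.C) when only peaks at or above the median signal of the list counted, against 1.28% of all genes. With a replicate left out, the list of replicate 1 gave 3, against 1.53% of all genes. That of replicate 2 gave 1 (eif-3.C), against 1.21%. Under the other 7 alternatives the count was 3 or 4, against 1.67 to 3.28% of all genes. The count with a candidate, 32 (86.5%, against 67.9% of all genes), stayed within 1.5 times under all 9 alternatives (24 to 33). The share of all genes moved as well. With the nearest start the count was 24 (64.9%), against 62.8% of all genes, so little difference was left under that rule. With a replicate left out it was 30 in replicate 1 (81.1%, against 51.9%) and 28 in replicate 2 (75.7%, against 51.7%). The median percentile, 75.1, was 69.8 with a window reaching 2000 bp upstream, 79.45 with 500 bp upstream to 250 bp downstream, 56.0 with the nearest start and 71.9 without summits at small RNA genes. With a replicate left out it lay between 68.65 and 72.55. The median signal, 37.9, was 29.8 in replicate 1 alone, against 22.4 for all genes with a candidate in that list. In replicate 2 alone it was 18.6, close to the 17.8 of all genes with a candidate there. Single-replicate lists have their own signal scale. The causes were not tested. No paired analysis was possible because there is 1 group. Depth is unknown, and with 37 genes a share of a few percent cannot be told from that of all genes.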

Other observations

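The strongest site near eef-1A.1 lay just outside its promoter window. A candidate 573 bp downstream of the start, inside the gene, had a signal of 80.0 in the pooled list, 49.8 in replicate 1 (607 bp downstream) and 20.8 in replicate 2 (590 bp downstream), against 63.9 for the strongest inside the window.

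No summit of the main thresholded list lay inside the body of any of the 37 genes. How many of all protein-coding genes hold such a summit was not counted, so this does not set the 37 apart. The 37 genes were spread over chromosome I (12), chromosome II (11), chromosome III (5), chromosome V (4), X (3) and IV (2).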
